A study of Mus musculus with 16 samples.

Results

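Liver metastases were compared with pancreas tumours of the same cancer model after Smad4 had been restored. The comparison rests on 5 of the 16 samples of the series, the liver metastases Liv_ON_1 and Liv_ON_2 (n = 2) and the pancreas tumours Panc_ON_1, Panc_ON_2 and Panc_ON_3 (n = 3), chosen by their labelled organ and Smad4 status. In each, chromatin accessibility was measured by ATAC-seq, in which a transposase cuts open DNA, at the 136630 nuclear peaks of a set shared by all samples. The cells were KC-shSmad4 pancreatic cancer cells, which carry Ptf1a-Cre, an rtTA3-mKate2 transgene at Rosa26 and a doxycycline-inducible Smad4 shRNA at the Col1a1 locus. Ptf1a-Cre acts in the pancreatic lineage, so the alleles were switched on where the tumours arose, and mKate2 marks every cell that descends from them. In all groups, Smad4 was depleted during growth on doxycycline chow. In Liv_ON and Panc_ON the drug was then withdrawn for 14 days, so that Smad4 was expressed again from its own locus. The same organs with Smad4 still off gave Liv_OFF (n = 2) and Panc_OFF (n = 3), which are other mice and are used to repeat the comparison.

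Hosts were female Foxn1 nu mice of 6 to 8 weeks, which lack T cells and retain other immune cells and their own stroma. For pancreas tumours, 100000 cells were injected into the pancreas and withdrawal began after 4 weeks. For liver metastases, 400000 cells were injected into the spleen, which was then removed, and withdrawal began after 5 weeks. From every tumour 60000 mKate2-positive cells were sorted. Which parental line was injected in each mouse is not given in the sources used here. Organ, route of injection, time of growth and, if they differed, the injected lines therefore cannot be told apart.

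Pancreatic ductal adenocarcinoma cells range from epithelial states, with cadherin and claudin junctions and keratins, to mesenchymal states, in which junction genes are silent and genes for collagens and other matrix proteins are open. Transcription factors such as GRHL2, OVOL1 and ELF3 maintain the epithelial state, and ZEB, SNAI and TWIST factors repress it. HNF1 and HNF4 factors and FOXA1 belong to the endodermal programme that liver, pancreas and gut share. SMAD4 is the common partner of the SMADs that carry TGFβ and BMP signals to DNA.

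The sequences below are examples of called peaks, each chosen because it holds a given motif. For each of 7 motifs, the peak shown had the largest fold change among called intronic and intergenic peaks that hold the motif, are nearest to a protein-coding gene and have no overlap between the groups, a mean of at least 50 in the higher group and more than 3 reads summed over the samples of the lower group. A nearest gene was used once, so the KLF peak follows the E-box peak, which also holds a KLF motif. Each run is the central 200 bp of the peak on the plus strand of GRCm38 (mm10), with matches to the motif on either strand in capitals. The first 4 peaks were more accessible in liver metastases and carry, in order, the E-box CAGGTG bound by ZEB and SNAI factors, the HNF1 motif, the HNF4 motif CAAAGTCCA and the KLF motif CCNCNCCC. The last 3 were more accessible in pancreas tumours and carry the AP-1 motif TGANTCA, the RUNX motif TGTGGTT and the palindromic SMAD motif GTCTAGAC. Other motifs are left in lower case. The E-box peak also holds a RUNX motif, the KLF peak an E-box and the RUNX peak a KLF motif.
Ppfibp2 intron, nearest start site 5330417H12Rik, chr7:107685675-107685874, E-box: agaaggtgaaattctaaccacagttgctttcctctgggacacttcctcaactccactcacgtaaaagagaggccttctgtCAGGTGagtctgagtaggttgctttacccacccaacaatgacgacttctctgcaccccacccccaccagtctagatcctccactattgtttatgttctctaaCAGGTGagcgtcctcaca
Tiam1 intron, chr16:89924556-89924755, HNF1: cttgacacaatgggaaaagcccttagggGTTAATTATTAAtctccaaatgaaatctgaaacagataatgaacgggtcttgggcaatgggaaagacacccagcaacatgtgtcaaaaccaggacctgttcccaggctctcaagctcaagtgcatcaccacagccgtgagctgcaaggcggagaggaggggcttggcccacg
Intergenic, nearest gene Lhx8, chr3:154305434-154305633, HNF4: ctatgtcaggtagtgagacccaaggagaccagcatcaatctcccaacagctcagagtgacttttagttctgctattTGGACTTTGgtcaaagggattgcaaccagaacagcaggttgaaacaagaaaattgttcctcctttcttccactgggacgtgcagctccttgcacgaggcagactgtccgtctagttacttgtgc
Zfp652 intron, nearest start site Phospho1, chr11:95819264-95819463, KLF: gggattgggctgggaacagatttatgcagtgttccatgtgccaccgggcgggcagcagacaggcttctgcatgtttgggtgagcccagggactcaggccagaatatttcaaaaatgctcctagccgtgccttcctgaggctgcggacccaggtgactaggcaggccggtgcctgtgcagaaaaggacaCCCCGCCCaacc
Vps41 intron, chr13:18788786-18788985, AP-1: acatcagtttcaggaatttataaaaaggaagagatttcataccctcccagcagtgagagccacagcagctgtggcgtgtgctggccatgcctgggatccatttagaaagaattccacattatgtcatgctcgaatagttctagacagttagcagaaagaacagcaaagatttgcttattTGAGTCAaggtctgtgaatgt
Cdh23 intron, chr10:60583115-60583314, RUNX: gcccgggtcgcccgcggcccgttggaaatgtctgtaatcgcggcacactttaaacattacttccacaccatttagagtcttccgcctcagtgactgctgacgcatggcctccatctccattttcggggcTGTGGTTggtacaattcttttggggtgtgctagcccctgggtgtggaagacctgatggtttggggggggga
Map2k5 intron, chr9:63326762-63326961, SMAD: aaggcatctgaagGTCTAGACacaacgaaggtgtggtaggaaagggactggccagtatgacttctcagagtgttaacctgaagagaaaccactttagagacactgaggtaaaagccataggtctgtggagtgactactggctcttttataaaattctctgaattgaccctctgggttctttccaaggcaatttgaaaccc

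Values are normalised counts, the reads in a peak divided by a size factor of the sample. The E-box peak in Ppfibp2, nearest to the start of 5330417H12Rik, had 436 and 551 normalised counts in Liv_ON_1 and Liv_ON_2 against 3.56, 33.4 and 3.07 in Panc_ON_1, Panc_ON_2 and Panc_ON_3. The HNF1 peak in Tiam1, a Rac exchange factor, had 189.8 and 242 in the liver against 5.33, 16.1 and 10.7 in the pancreas. In both, every pancreas tumour was far below either liver sample. The HNF4 peak nearest to Lhx8 had 59.4 and 125 in the liver against 2.67, 7.43 and 3.07. The AP-1 peak in Vps41 had 1.16 and 4.06 in the liver against 118, 147 and 53.7 in the pancreas, and the RUNX peak in Cdh23 had 5.82 and 3.05 against 246, 297 and 69.7. The SMAD peak in Map2k5 had 5.82 and 3.05 against 98.7, 86.7 and 29.1. In these 3 pancreas-accessible peaks Panc_ON_3 was the lowest of the pancreas tumours and still above both liver samples.

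Reads in nuclear peaks ranged from 22.5 M (Panc_ON_2) to 37.5 M (Panc_ON_3) in the 5 samples. Mitochondrial reads were 2.55% and 2.58% of the reads in the table in Liv_ON and 1.80% to 2.17% in Panc_ON. The liver samples resembled each other (Spearman rho across peaks 0.949), as did Panc_ON_1 and Panc_ON_2 (0.968), while Panc_ON_3 stood slightly apart from them (0.896 and 0.901). Liver and pancreas samples had rho between 0.617 and 0.754, and the higher values belonged to Liv_ON_1. No pair of replicates agreed within counting noise, so all 5 were kept as separate samples.

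The question was how chromatin differs between a metastatic and the primary site once Smad4 is present in both. Accessibility differed at most peaks. A peak was called when its log2 fold change reached 0.58 in size with a limma adjusted p no greater than 0.1, the cut-offs of the study, and 81100 of 136630 peaks (59.4%) were called. Of these, 37078 (27.1% of all peaks) were higher in Liv_ON, where the median log2 fold change was 1.64, and 44022 (32.2%) were lower, where it was −1.85. A change of 4-fold or more was seen in 13112 peaks that were higher and 18995 that were lower. The 2 liver samples lay on one side of all 3 pancreas samples in 97604 peaks (71.4%). The count depended on Liv_ON_2. Without it, 53580 peaks were called, with 26964 higher and 26616 lower.

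Called peaks were mostly outside promoters, here peaks whose edge lies within 1000 bp of a transcription start site. Promoter peaks made up 14.6% of all peaks, 12.3% of those higher in the liver, 6.50% of those lower and 22.6% of those not called. Of the 20000 promoter peaks, 37.2% were called, 22.9% higher and 14.3% lower, so that promoters leaned to the liver whereas the other peaks leaned to the pancreas. This split was taken from the main scaling only. Quantile normalisation moved some start-site peaks down and others up, and whether the lean holds there was not tested. Peaks lower in the liver lay at a median of 17786 bp from a start site, against 10410.5 bp for those higher and 11844 bp for all peaks. Peaks higher in the liver were also wider (median 648 bp against 557 bp) and richer in GC (46.4% against 44.3%).

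Genes of epithelial junctions and keratins were more accessible in liver metastases almost throughout. Of the 90 peaks assigned to 19 genes, 77 were higher and 4 lower. Their median log2 fold change was 1.74, compared with −0.08 over all peaks, and 18 of the 19 peaks at their start sites were higher. At the start site of Cdh1, which encodes E-cadherin, counts were 8424 and 10742 in the liver against 3525, 3309 and 4060.0 in the pancreas (log2 fold change 1.39, SE 0.16, adjusted p = 1.3e-05). All 8 peaks of Cdh1 were higher. At Epcam, an epithelial adhesion molecule, counts were 1539 and 2073 against 416, 407 and 357 (2.18, SE 0.21), and 14 of its 15 peaks were higher. The tight-junction gene Cldn3 had 2520.5 and 3948 against 484, 411 and 513 (2.75, SE 0.33), and Ocln had 1881 and 2818 against 593, 407 and 429 (2.29, SE 0.26). Tjp1 was the gene of the list whose start site was not called, with a log2 fold change of 0.48, and it was called without Liv_ON_1 (0.59), with GC correction (0.68) and with block and GC correction (0.67).

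Regulators of the epithelial state were also higher. At the start site of Grhl2, counts were 644 and 722 in the liver against 33.8, 47.0 and 39.9 in the pancreas (log2 fold change 4.06, SE 0.38, adjusted p = 3.6e-06). Esrp1, an epithelial splicing regulator, had 1482 and 1787 against 213, 203 and 267 (2.84, SE 0.25). Ovol1 had 1012 and 1291 against 213, 151 and 164 (2.71, SE 0.26), and Elf3 had 6116 and 7052 against 1909, 1575 and 1860.2 (1.89, SE 0.15). In each of these genes the lowest liver sample was over every pancreas sample.

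**Figure D1:**
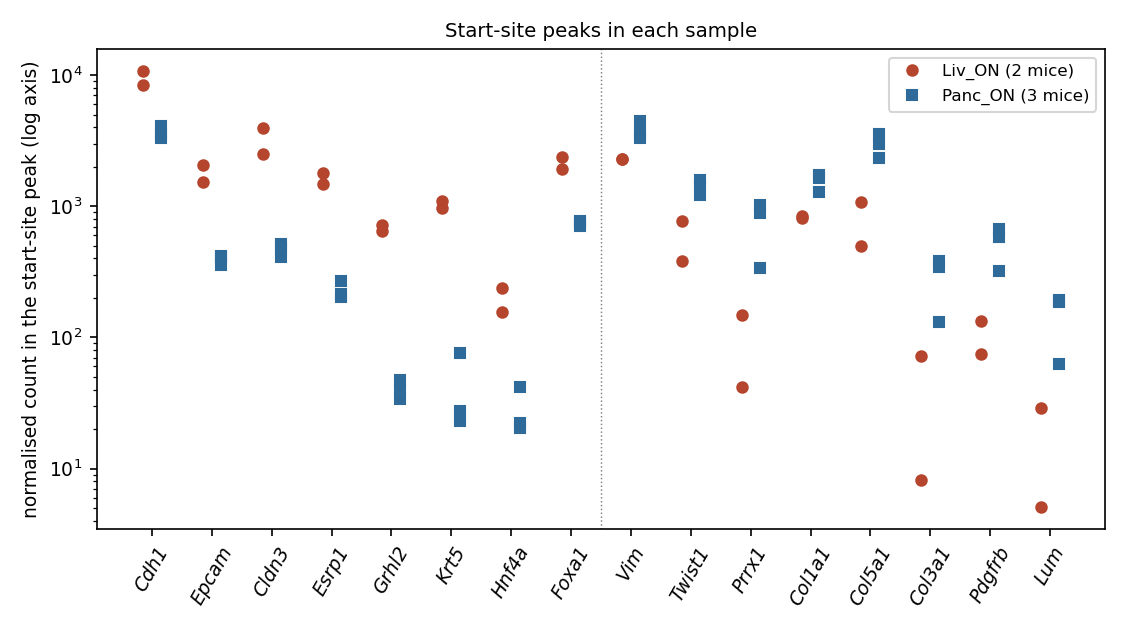
Normalised count in the start-site peak of 16 genes (log axis) in each sample, with circles for the 2 Liv_ON and squares for the 3 Panc_ON samples. The 8 epithelial and endodermal genes on the left are higher in both liver samples, and the 8 mesenchymal, matrix and fibroblast marker genes on the right are lower, with Liv_ON_2 below Liv_ON_1 and Panc_ON_3 lowest of the pancreas tumours at Prrx1, Col3a1, Pdgfrb and Lum.

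Basal and squamous genes were more accessible in the liver at 45 of 85 peaks and less accessible at 16 (median 0.80), and 11 of 14 start sites were higher. The start site of Krt5, the basal keratin, had 969 and 1088 in the liver against 23.1, 75.5 and 27.6 in the pancreas (log2 fold change 4.78, SE 0.44). Lama3 and Lamb3, which encode laminin chains of basement membranes, were also higher. Lama3 had 1551 and 2284 against 292, 218 and 271 (2.86, SE 0.27), and Lamb3 had 1861 and 2505 against 538, 412 and 487 (2.18, SE 0.24). At Trp63, a regulator of basal cells, 13 of 23 peaks were higher and 4 lower.

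Endodermal and liver-enriched transcription factors had 57 of 115 peaks higher and 9 lower (median 0.72), and 7 of 17 start sites higher and 0 lower. At the start site of Hnf4a, counts were 157 and 239.7 in the liver against 20.4, 42.1 and 22.2 in the pancreas (log2 fold change 2.81, SE 0.35, adjusted p = 1.9e-05). Hnf4g had 738 and 976 against 274, 220.4 and 349 (1.62, SE 0.21). Foxa1, which opens chromatin in endoderm, had 1916 and 2371 against 769.8, 704 and 759.6 (1.52, SE 0.15). The start sites of Gata4 (0.47), Gata6 (0.09) and Foxa2 (0.53) did not pass, although Foxa2 was called without Panc_ON_3 (0.70) or without Liv_ON_1 (0.67). Gata4 still had 8 of 17 peaks higher.

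Genes of gastric and mucous cells had 30 of 65 peaks higher and 7 lower (median 0.55). Of 15 start sites, 8 were higher and 2 lower. Those higher included Lgals4 (log2 fold change 2.18, SE 0.21), Tff2 (2.09, SE 0.30) and the membrane mucin Muc13 (1.94, SE 0.25). Transcription factors of the pancreatic lineage were divided, with 20 of 48 peaks higher and 14 lower (median 0.10). Pdx1 was about equal at its start site, with 2637 and 2862 in the liver against 2942, 2394 and 2715 in the pancreas, while 5 of its 6 peaks were higher. Bhlha15, the acinar factor MIST1, was higher (2.10, SE 0.35). Pax6, an endocrine and eye factor, was lower, with 193 and 45.7 against 917, 607 and 789 (−3.00, SE 0.70).

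Matrix genes showed the reverse pattern, with the largest share of lower peaks among the 16 lists. Of 90 peaks at 16 genes, 74 were lower in the liver and 2 higher (median −1.96), and 13 of 17 start sites were lower. The peak at the start site of Col3a1 had 72.2 and 8.12 in the liver against 383, 343 and 130.3 in the pancreas (log2 fold change −3.32, SE 0.71, adjusted p = 0.0012). At Col5a1, whose 16 peaks were all lower, the start site had 1087 and 494 against 3572, 2979.7 and 2335 (−1.99, SE 0.28). Lox, a collagen cross-linking enzyme, had 60.6 and 4.06 against 368, 249 and 63.6 (−3.36, SE 0.92). Here Panc_ON_3 and Liv_ON_1 were nearly level, and the call was lost without Liv_ON_2 (−1.56). Col6a1, Col12a1 and Fbn1, which encodes fibrillin, fell by 1.76, 1.95 and 2.25 on the log2 scale. At Col1a1, the locus that also carries the shRNA cassette, the start site had 839 and 819.6 against 1727, 1648 and 1277 (−0.89, SE 0.12).

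Mesenchymal genes and the factors of epithelial-mesenchymal transition had 49 of 71 peaks lower and 7 higher (median −1.37), with 11 of 15 start sites lower. Prrx1 had 149 and 41.6 in the liver against 1019, 885 and 340.3 in the pancreas (log2 fold change −3.08, SE 0.54, adjusted p = 0.00027). Twist1 had 768 and 381 against 1573, 1464 and 1221 (−1.38, SE 0.21), and all 6 of its peaks were lower. Zeb2 fell by 0.81 on the log2 scale at its start site and was lower at 7 of 7 peaks, Vim by 0.73 and Cdh2, which encodes N-cadherin, by 0.79. The start sites of Zeb1 (−0.18), Snai1 (0.24) and Snai2 (−0.41) did not pass, although Snai2 did with quantile normalisation (−0.68).

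Markers of fibroblasts and stellate cells moved with the matrix and mesenchymal genes. Of 43 peaks, 27 were lower and 3 higher (median −1.54), and the summed normalised count over the list was 3333 and 2487 in the liver against 8863, 7101 and 6002 in the pancreas. Pdgfrb had 133 and 75.2 against 676, 581 and 320.4 (log2 fold change −2.31, SE 0.41), and Lum had 29.1 and 5.08 against 185, 194 and 62.9 (−3.29, SE 0.73). Dcn had 19.8 and 12.2 against 196, 149 and 49.8. Lung metastases, with sums of 3978 to 4311, lay between. None of the 43 peaks was at 0 in both liver samples, and 1 of the 90 matrix peaks was. In sorted bulk samples a smaller share of cells with an open site and a less open site in every cell cannot be told apart, and the part of fibroblasts in these results was not tested.

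Markers of most other cell types were divided. Hepatocyte markers had 21 of 68 peaks higher and 21 lower, and summed to 7885 and 8389 in the liver against 7247 to 8202 in the pancreas. The peak nearest to Alb, the albumin gene, had 15.1 and 18.3 in the liver against 6.22, 9.90 and 5.37, a log2 fold change of 1.15. That call was lost without Panc_ON_3 (0.99) or without Liv_ON_2 (1.02), with a replicate block and GC correction (0.76), and in a fit of only the groups compared (limma adjusted p = 0.134). At the peak nearest each start site, at any distance, 9 of 21 hepatocyte markers were higher and 4 lower. Only 14 of these genes had an assigned peak, so the shares over promoter peaks (22.9% and 14.3%) are not a like measure. Ttr, which encodes transthyretin, had 199 and 242 against 20.4, 54.5 and 35.3. Endothelial markers had 12 peaks higher and 12 lower of 42, acinar markers 6 and 5 of 18, and endocrine markers 5 and 3 of 19. Leukocyte markers leaned to the pancreas, with 2 of 18 peaks higher and 9 lower (11.1% and 50%, median −0.75). Summed counts were 4535 and 4774 against 4008 to 4836 for endothelial and 1641 and 1803 against 1394 to 1696 for leukocyte markers. None of these peaks was at 0 in both liver samples.

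**Figure D2:**
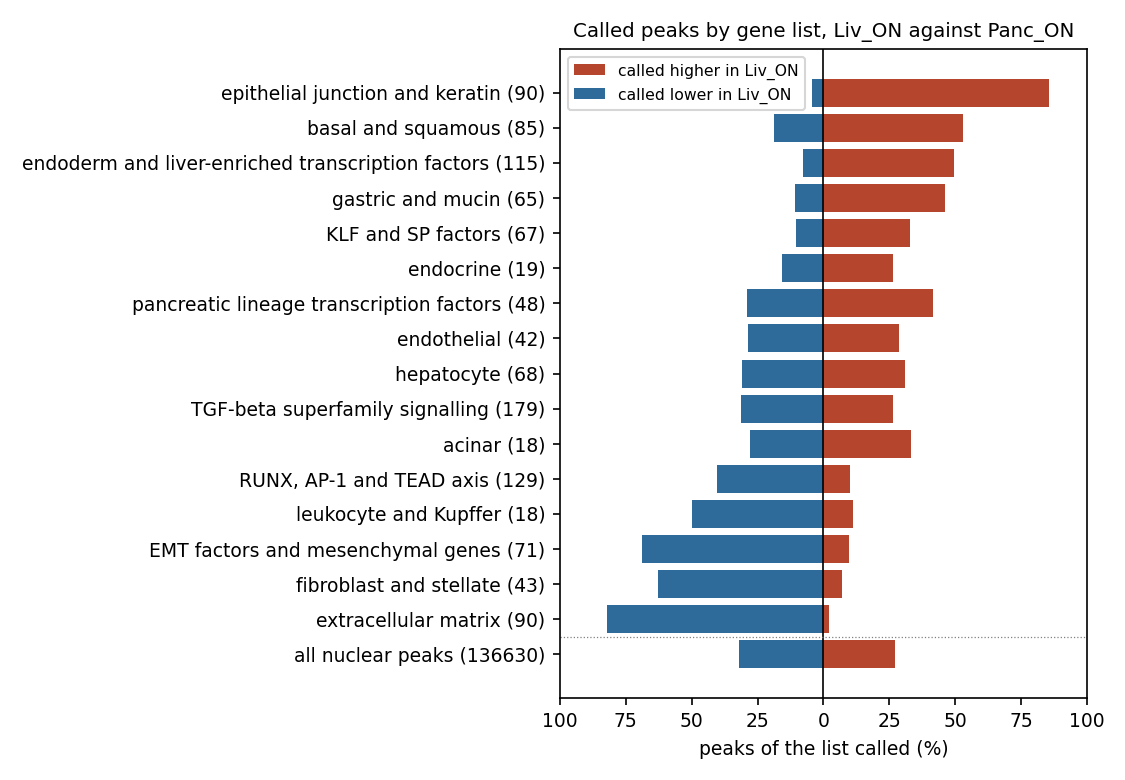
Share of the peaks of each gene list called higher in Liv_ON (right) and lower (left), in percent, with the number of peaks in brackets and lists ordered by their median log2 fold change. Over all nuclear peaks 27.1% were higher and 32.2% lower, against 77 and 4 of 90 peaks at epithelial genes and 2 and 74 of 90 at matrix genes.

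Since Smad4 was present in both groups, genes of the TGFβ superfamily were examined as a list. Of their 179 peaks, 47 were higher and 56 lower in the liver, close to the shares over all peaks (median −0.03). Without Liv_ON_2 the counts were 36 and 28. Of the 26 start sites, 5 were higher and 3 lower, beside 22.9% and 14.3% of all promoter peaks. Those of a response gene and a feedback inhibitor were among the higher ones. Id1, a target of BMP signals, had 7674 and 9634 in the liver against 4074, 3685 and 3950.4 in the pancreas (log2 fold change 1.14, SE 0.12). Smad6, an inhibitory SMAD, had 5828 and 7021 against 3656, 3648 and 3568 (0.82, SE 0.13). Inhba, which encodes a subunit of activins, was lower at its start site (−0.60, SE 0.12) and at all 5 of its peaks, but the start site missed the fold without Panc_ON_1 (−0.55). Inhba (−0.55) and Smad6 (0.57) also missed it with a correction for GC content, and Smad6 with quantile normalisation (0.51). Ltbp1, which holds latent TGFβ in the matrix, had 731 and 732 against 1649, 1370.4 and 1068 (−0.87, SE 0.15), with 13 of 30 peaks lower and 5 higher. Smad7, another inhibitory SMAD, did not pass (−0.04), and Smad4 itself had 889 and 990.2 against 686, 738 and 683 (0.42, SE 0.11), under the fold needed. The shRNA acts on RNA, so this peak is no check of Smad4 status.

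KLF and SP factor genes had 22 of 67 peaks higher and 7 lower (median 0.35). These were 32.8% and 10.4%, beside 27.1% and 32.2% over all peaks. Of the higher peaks, 12 lay at Klf3. Klf9 (0.80, SE 0.13) and Klf11 (0.60, SE 0.12) were higher at their start sites, but neither passed with the GC correction (0.57 and 0.35) or quantile normalisation (0.53 and 0.31), and Klf11 also missed the fold without Liv_ON_2 (0.51) or without Panc_ON_3 (0.51). Genes of RUNX, AP-1 and TEAD factors had 52 of 129 peaks lower and 13 higher (median −0.46). These were 40.3% and 10.1%, beside 32.2% and 27.1% over all peaks. Without Liv_ON_2 the counts were 35 and 8. Of 20 start sites in the list, 2 were lower and 1 higher. Runx1 accounted for 20 of the lower peaks out of its 28, while its start site had 2585 and 3054 in the liver against 2894, 2404 and 2368 in the pancreas and was not called. Tead1 had 12 of 23 peaks lower and 3 higher. Runx3 was lower at its start site, with 306 and 177 against 412, 423 and 555 (−0.98, SE 0.24), a call lost without Liv_ON_2 (−0.58).

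The largest single differences were named by a rule of size, as the called peaks of protein-coding genes that did not overlap between the groups. Among promoter peaks higher in the liver, Rab25, an epithelial trafficking GTPase, had 292 and 272 against 11.6, 18.6 and 2.30 (4.92, SE 0.63, chr3:88548074-88548876), and the beta-defensin gene Defb1 had 332 and 444 against 8.89, 49.5 and 5.37 (4.71, SE 0.72). An intronic peak of the ephrin receptor gene Ephb2 had 432 and 565 against 5.33, 22.3 and 7.66 (5.51, SE 0.63). The intronic peak of Mctp2, which holds the E-box, had 455 and 597 against 11.6, 16.1 and 9.20 (5.33, SE 0.62). The smallest p-values belonged to wide peaks with little spread, such as the promoter peak of the keratin gene Krt23, with 1709.8 and 2180.5 against 371, 260.0 and 258 (2.72, SE 0.19), and an intronic peak of Efhd2 (3.05, SE 0.20).

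Among promoter peaks lower in the liver, Thbs2, a matrix glycoprotein of mesenchymal cells, had 53.6 and 6.09 against 652, 514 and 165 (log2 fold change −4.28, SE 0.71). Fgf7, a growth factor secreted by mesenchyme, had 3.49 and 3.05 against 219.6, 106 and 24.5 (−4.31, SE 0.72), and Cd34 had 4.66 and 1.02 against 89.8, 90.4 and 45.2 (−4.43, SE 0.64). At Cpa4, whose peak holds both the AP-1 and the RUNX motif, counts were 10.5 and 2.03 against 248, 177 and 39.1 (−4.36, SE 0.69, chr6:30568028-30568580). An intronic peak of Ror2, a WNT5A receptor, had 15.1 and 3.05 against 430.2, 334 and 108 (−4.96, SE 0.64), and a peak near the integrin gene Itga4 had 2.33 and 3.05 against 157, 167 and 47.5 (−4.89, SE 0.80). A peak nearest to Col11a1 had 1.16 and 0 in the liver against 22.2 to 94.1 in the pancreas. Smaller but steadier differences had the smallest p-values, as at Spp1, which encodes osteopontin, with 184 and 138 against 586, 501 and 587 (−1.80, SE 0.18), and at Plat, which encodes tissue plasminogen activator, with 748 and 709 against 1829, 1589.5 and 1703 (−1.23, SE 0.12).

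Whole loci differed in one direction. Shroom3, which shapes epithelial cells, had 26 of 29 peaks higher in the liver (median 2.03), Tmprss2, a serine protease of epithelia, 25 of 30, Map7 21 of 23, Tiam1 20 of 21 (median 3.73), Wwc1 18 of 18 and Fgfr2 18 of 20. Of the loci that were lower, Rbfox1 had 25 of 27 peaks lower (median −2.27), Nebl 24 of 29, Rgl1 19 of 20, Ror2 17 of 21 (median −3.28), Col8a1 16 of 17 and Creb5 16 of 18. These loci were ranked by the number of called peaks, so long genes with many peaks come first.

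The comparison was repeated in the 5 mice with Smad4 off, none of which is in the comparison above. There 79962 peaks (58.5%) were called, 35843 (26.2%) higher and 44119 (32.3%) lower in Liv_OFF. Of the peaks called with Smad4 restored, 68061 were called the same way with Smad4 off, which is 83.9% of the first and 85.1% of the second set, and 25 were called the opposite way. Log2 fold changes had a Pearson r of 0.921 across peaks, which share the peak set and are not independent replicates. All 18 named peaks that were higher in Liv_ON by size, promoters included, were also called higher in Liv_OFF. Their median log2 fold change was 4.83 there and 5.32 with Smad4 restored. The 19 that were lower were also called lower, and their medians were −3.61 and −4.84. All these peaks were chosen by their size with Smad4 restored, a choice that favours larger medians in that state. Epithelial genes had 76 of 90 peaks higher and 3 lower in Liv_OFF, and matrix genes 76 of 90 lower and 0 higher.

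The difference between the states was tested as an interaction, the liver-pancreas difference with Smad4 restored minus that with Smad4 off. By limma 0 peaks were called (0.0% of peaks, smallest adjusted p = 1.00), with 5403 peaks at an unadjusted p under 0.05, which is 3.95%. The quasi-likelihood test of edgeR also called 0 peaks (6065 at an unadjusted p under 0.05), and the Wald test of DESeq2 called 25. The median absolute difference of the log2 fold changes of both states was 0.39 among the peaks called with Smad4 restored. That limma and edgeR called none does not show that the states were alike.

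**Figure D3:**
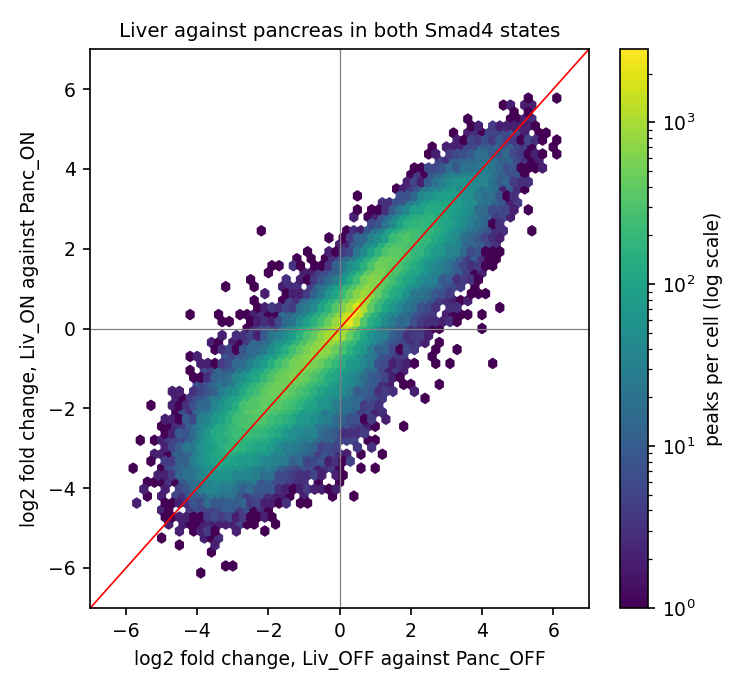
Log2 fold change of each nuclear peak between liver and pancreas with Smad4 off (horizontal axis) and restored (vertical axis), as the number of peaks per cell on a log colour scale, with the line of equal change in red. Most peaks lie along the line (Pearson r 0.921), and 25 were called in opposite directions.

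The 2 liver samples differed in degree. At peaks higher in the liver, Liv_ON_1 lay between the other liver sample and the pancreas mean in 82.4%, and its median log2 difference from the pancreas mean was 1.47 against 1.80 in Liv_ON_2. At peaks lower in the liver it lay between in 83.1%, with medians of −1.44 and −2.18. Because these samples also made the calls, each was placed between the groups with Smad4 off, at peaks called between those groups with a log2 fold change of at least 1 in size, on a scale where the Panc_OFF mean is 0 and the Liv_OFF mean is 1. At 27422 peaks higher in Liv_OFF the median position was 0.76 in Liv_ON_1 and 0.97 in Liv_ON_2, and between −0.19 and 0.00 in Panc_ON. At 38774 peaks lower in Liv_OFF, Liv_ON_1 was at 0.53 and Liv_ON_2 at 0.91. Liv_ON_1 was thus nearer to the pancreas tumours at peaks lower in the liver than at peaks higher. Panc_ON samples lay between −0.21 and −0.06 there, with the widest spread over peaks in Panc_ON_3.

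**Figure D4:**
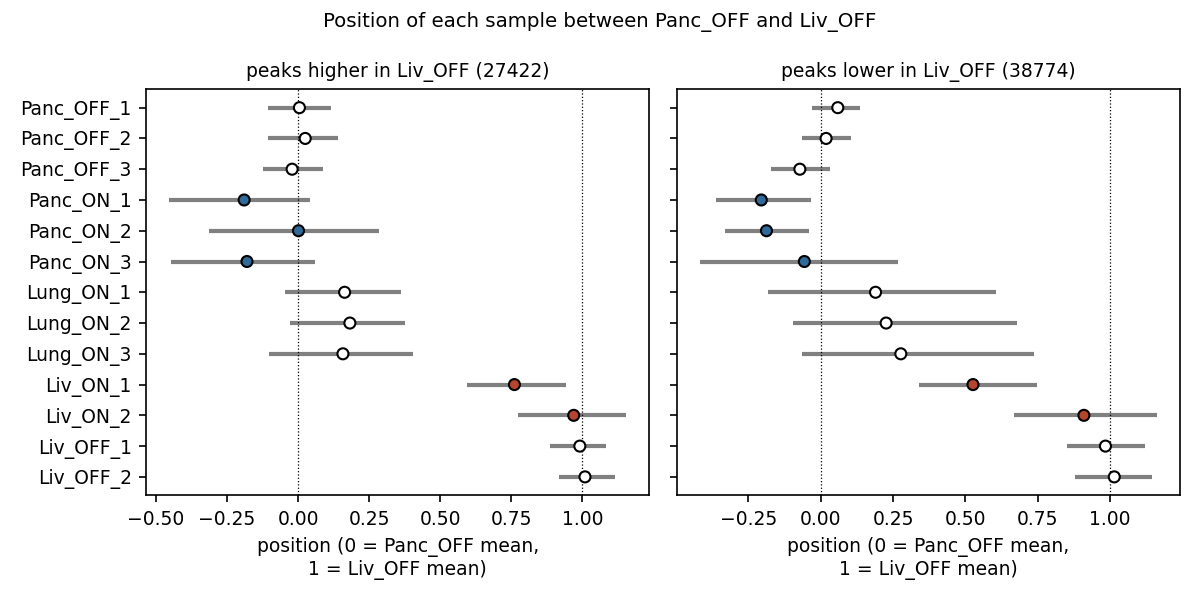
Median position of each sample over peaks higher in Liv_OFF (left) and lower in Liv_OFF (right), on a scale where 0 is the Panc_OFF mean and 1 the Liv_OFF mean, with bars from the first to the third quartile of the peaks, red for Liv_ON, blue for Panc_ON and white for Panc_OFF, Liv_OFF and Lung_ON. Panc_OFF and Liv_OFF lie near 0 and 1 by construction, Liv_ON_2 lies at 0.97 and 0.91, and Liv_ON_1 at 0.76 and 0.53.

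Lung metastases with Smad4 restored (Lung_ON, n = 3) were set beside both organs. They grew from 250000 cells injected into the tail vein, with withdrawal after 6 weeks, and the day in the names of their table columns is 1 later than in those of the other organs. Comparisons of Liv_ON with Lung_ON and of Lung_ON with Panc_ON share samples with the main comparison and are given as values only. Over all peaks, 17.6% were higher and 18.2% lower in Liv_ON than in Lung_ON, and 12.8% were higher and 14.9% lower in Lung_ON than in Panc_ON. Epithelial genes had 60 of 90 peaks higher and 2 lower in liver than in lung metastases, and 36 higher and 1 lower in lung metastases than in pancreas tumours. Matrix genes had 38 of 90 peaks lower in the liver than in the lungs, and 43 lower in the lungs than in the pancreas. Endodermal factors had 43 of 115 peaks higher and 1 lower in lung metastases than in pancreas tumours (median 0.57). They had 28 higher and 13 lower in the liver than in the lungs (median 0.15). For gastric and mucous genes, 30 of 65 were higher and 0 lower in the lungs than in the pancreas (median 0.73). In the liver against the lungs, 9 were higher and 13 lower (median −0.007). Lung metastases thus shared the gain of both lists over pancreas tumours. At the start site of Grhl2 the lungs had 41.0 ± 16.1 normalised counts (SD, n = 3), and the liver was higher (log2 fold change 4.09, adjusted p = 2.6e-05). At Cdh1 they had 6735 ± 562, and the liver exceeded them by 0.50, which did not pass the fold. At Col3a1 they had 36.9 ± 20.4, and the difference from the liver, whose samples lay far apart there, was not called (−0.42, adjusted p = 0.68). Dcn (15.7 ± 1.63 in the lungs), Pdgfrb and Lox did not pass between liver and lungs either. Over all fibroblast and stellate markers, 19 of 43 peaks were lower and 1 higher in the liver than in the lungs (median −0.70).

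As a description, the middle 200 bp of every peak was searched for short motifs on both strands. The E-box CAGGTG was present in 20.7% of peaks higher in the liver, 7.00% of those lower and 13.0% of all peaks. Of the 17795 peaks that hold it, 43.2% were higher and 17.3% lower. The HNF1 motif was rare, in 0.247% of all peaks, and 68.0% of its 337 peaks were higher and 6.53% lower (median log2 fold change 1.33). Of the 1085 peaks with the HNF4 motif, 59.3% were higher and 11.4% lower (median 1.19). The KLF motif was in 24.3% of peaks higher, 15.1% of those lower, 23.2% of those not called and 20.9% of all peaks. Its share in higher peaks was thus near that in peaks not called. Peaks with the KLF motif were also richer in GC, at a median of 50.4%.

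The AP-1 motif had the opposite distribution. It was in 38.9% of peaks lower in the liver, 18.8% of those higher and 28.1% of all peaks, and 44.6% of its 38398 peaks were lower. The RUNX motif was in 10.7% of peaks lower, 5.64% of those higher and 7.91% of all peaks. The SMAD motif was in 0.311% of peaks lower, 0.218% of those higher and 0.235% of all peaks, and of its 321 peaks 42.7% were lower and 25.2% higher. Over whole peaks its shares were nearly equal, at 0.915% of peaks lower and 0.904% of those higher. The FOX motif was in 5.36% of peaks higher, 3.68% of those lower and 4.42% of all peaks. For the ETS motif these shares were 5.26%, 3.91% and 4.64%. The TEAD motif was in 5.33% of peaks higher, 5.42% of those lower and 4.91% of all peaks. Its order between higher and lower peaks turned when whole peaks were searched. In the 200 bases before the start sites of 32851 RefSeq promoters, CAGGTG was found in 13.9%, the AP-1 motif in 5.48% and the KLF motif in 42.6%. Some matches arise by chance and some motifs overlap, so a match is not a bound site.

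**Figure D5:**
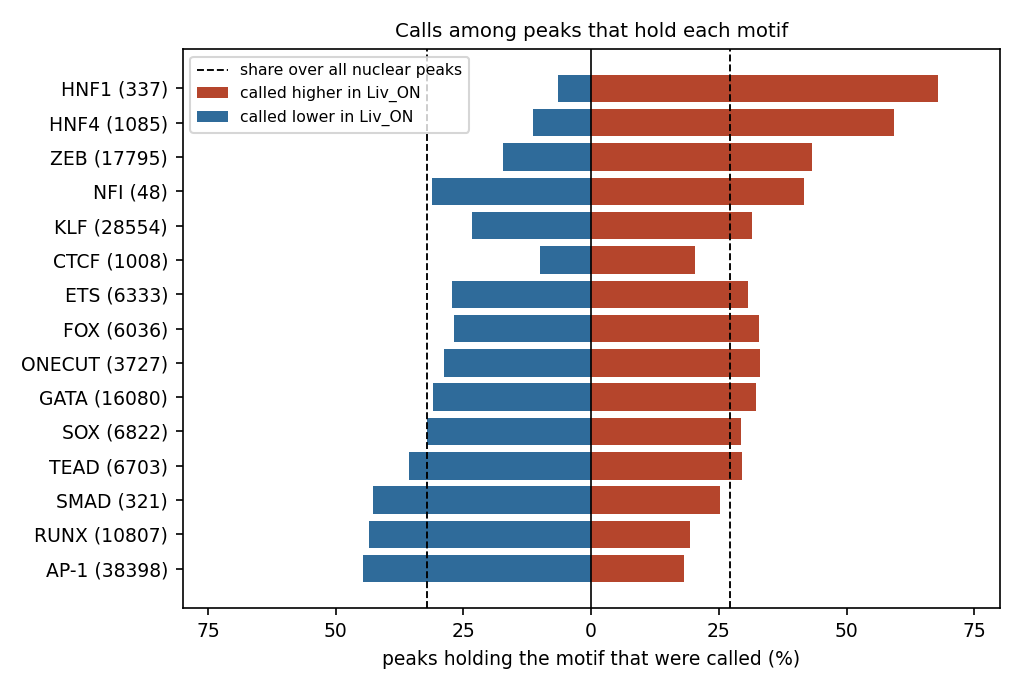
Share of the peaks holding each motif in their central 200 bp that were called higher in Liv_ON (right) or lower (left), in percent, with the number of peaks in brackets and dashed lines at the shares over all nuclear peaks (27.1% and 32.2%). HNF1, HNF4 and ZEB-type E-box peaks lean to the liver, and AP-1 and RUNX peaks to the pancreas, as do SMAD peaks in this window but not over whole peaks.

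Differences were not even along the chromosomes. Of 1169 windows of 2 Mb, 16 had a median log2 fold change of 1 or more and 195 of −1 or less, together 18.0%. With windows of 5 Mb the share was 9.33%. On a distal stretch of chromosome 6 that holds 2411 peaks, the median was −0.76 against −0.08 over all peaks, with 304 peaks higher and 741 lower. The median deviation there from the mean of all samples was −0.38 and −0.61 on the log2 scale in Liv_ON_1 and Liv_ON_2, and −0.18, 0.14 and 0.44 in Panc_ON_1, Panc_ON_2 and Panc_ON_3. Without this stretch 80247 peaks were called. DNA copy number was not analysed here, and its part in these values was not tested.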

How the data were processed

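Bulk ATAC-seq of sorted mKate2-positive cells was analysed. The authors deposited 1 signal table of normalised read counts by peak. According to the study's methods and the submitters' processing notes, the authors ran FastQC 0.11.5, trimmed with Trim Galore and cutadapt, used Bowtie2 for alignment (mm10) and MACS2 for peaks, dropped peaks on the ENCODE blacklist, merged peaks within 500 bp over all samples, counted with featureCounts and divided by DESeq2 size factors. Such scaling presumes that a majority of peaks is stable, whereas 59.4% were called. Duplicate removal and transposase shift are not given in the sources used here. Whole reads were recovered from 100% of values (tolerance 0.001). One mitochondrial row was left out. Columns were assigned to samples by organ, replicate number and doxycycline status, where drug withdrawal (DoxOFF) is Smad4 restored.

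limma 3.58.1 (R 4.3.3, trend and robust) was fitted on log2(normalised count + 1) with 6 group means over all 16 samples, so that the spread is shared between groups and fold changes of low peaks are understated. Benjamini-Hochberg adjustment covered all 136630 peaks, with no filter on low values. Each sample is a separate mouse. The fit was tested on simulated data. Peaks were assigned to the nearest start site within 100 kb from the peak edge (GENCODE vM21 basic annotation, GRCm38.p6). Named peaks were the 10 of largest fold change, the 5 of smallest p and the 10 promoters of largest fold change in each direction, all with a mean of at least 50 in the higher group and no overlap, and the 10 loci with most called peaks where at least 80% were called one way. Genes of the lists are named by start-site peak, the peak nearest to any start site of the gene, with no limit of distance. Peaks on chromosome 18 were left out of the choice of printed sequences. Some items are not reported here. The comparison, gene lists and motifs were chosen with earlier results of these data known. Alternatives used edgeR 4.0.16 and DESeq2 1.42.0 on recovered reads, other scalings, filters, thresholds, a GC correction, a replicate block and leaving out each sample.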

Additional observations from a re-analysis of the deposited data

How the results depend on the processing

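The count of 81100 called peaks stayed within 1.5 times under every alternative except leaving out Liv_ON_2, and lay between 53580 and 77766 over the fits without 1 sample. On recovered reads edgeR called 81694 and DESeq2 81360 peaks. Higher peaks were 45.7% of the calls, 50.0% after quantile normalisation, 49.6% after GC correction and 50.3% without Liv_ON_2. Added after seeing the data, a fit with Panc_ON_3 as the only pancreas sample, assumed to vary like the other groups, kept the direction of the main lists, with 73 epithelial peaks higher and 2 lower and 55 matrix peaks lower and 1 higher. The interaction gave 0 peaks, 25 by DESeq2, and 0 to 1 without 1 sample (1 without Liv_OFF_2). Windows of 5 Mb past a median of 1 were 9.33%. The excess of the TEAD motif in higher peaks turned from below to above 0, at 2.18 percentage points in whole peaks and 0.134 away from start sites. Of 1869 values recomputed for named peaks, 1814 kept direction and side of the threshold, 34 lost the call, 6 gained it and 15 changed sign, all at start sites that were not called. These were Gata6 (−0.21 with quantile normalisation, −0.11 with GC correction, −0.13 with block and GC correction, −0.0219 to 0.178 without 1 sample), Pdx1 (−0.26, −0.074 and −0.069 in the same order, −0.041 to 0.108 without 1 sample), Runx1 (−0.15, −0.0974 and −0.101) and Smad7 (−0.13 to 0.040 without 1 sample, 0.073 with Panc_ON_3 alone). Numbers of replicates did not pair samples (correlations of deviations 0.17 and 0.00 with Smad4 restored, −0.11 and −0.02 with Smad4 off), and a replicate block gave 79952 calls, or 78210 with GC correction as well. With 2 liver samples, interval widths rest largely on the spread of other groups.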
